A study of Homo sapiens with 2 samples.

Results

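Eph receptors, ephrins and the other axon guidance genes were examined in C4-2B ENZR, an established human prostate cancer line that grows despite enzalutamide, a drug given against prostate cancer. Members were taken by symbol alone: the Eph receptors, the ephrins, the Robo and UNC5 receptors, DCC, the Slits, the netrins, the DPYSL genes and L1CAM, 43 of the 26447 genes listed. Cells of the control library (shControl) carried a lentiviral hairpin that targets no gene, and cells of the knockdown library (shNRP2) carried 1 hairpin against coding sequence of NRP2, the neuropilin-2 co-receptor. Both populations had been selected with an antibiotic and were kept in 20 µM enzalutamide, so no group without the drug is part of the comparison. Each group holds 1 library of a selected population and rests on 1 hairpin sequence, so the differences below describe 2 libraries, have no replicate check and come with no test between the conditions.

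Eph receptors are receptor tyrosine kinases that bind ephrins on the surface of a neighbouring cell, and signals run into both cells. A-type ephrins are held in the membrane by a lipid anchor and mostly bind EphA receptors, while B-type ephrins cross the membrane and mostly bind EphB receptors. Slits signal through Robo receptors, netrins signal through DCC and UNC5 receptors, and the DPYSL genes encode the CRMP proteins, cytoplasmic relays that act downstream of semaphorins and neuropilin-plexin receptors. In epithelia and carcinomas these systems are known for sorting cells at boundaries and for effects on adhesion and movement.

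The control library held 21052178 reads on listed symbols and the knockdown library 22992304. NRP2, the targeted gene, was at 0.974 CPM (the deposited TMM-scaled CPM, a read count relative to library size) in shControl and 0.330 CPM in shNRP2, which are 20 and 7 reads. The labelled cell type was checked on 12 prostate epithelial markers, and all of them passed a mean of 1 CPM. They differed between the libraries as well, with 3 of the 12 higher in shNRP2 by 1.5-fold or more (KLK3 by 7.33-fold, KLK2 by 5.65-fold and TMPRSS2 by 1.55-fold) and 0 lower. Of 9 neuronal and neuroendocrine markers 1 passed that level, and together they held 52 reads in shControl and 46 in shNRP2, with NEUROD1 and STMN2 at 0 in both. Summed fibroblast markers were at 46.7 and 36.8 CPM, most of it COL1A1, with DCN at 0 in both, endothelial markers at 3.75 and 3.87 CPM with TEK at 0 in both, and leukocyte markers at 0.438 and 0.189 CPM. The libraries also differed in genes induced by low oxygen, of which 8 of 10 measured were higher in shNRP2 by 1.5-fold or more and 0 lower, with a median log2 change of 1.60. The prostate and low-oxygen counts stand beside 5.78% higher and 3.57% lower of all 13316 genes with a mean of 1 CPM or more. The part of the prostate and low-oxygen genes in the levels of the guidance genes was not tested, and in bulk RNA fewer cells of a type and less RNA per cell cannot be told apart.

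Of the 43 members, 28 averaged 1 CPM or more across the pair of libraries and were compared. Change is expressed as log2((shNRP2 CPM + 1)/(shControl CPM + 1)), on which scale low genes change less than their plain ratio, and 1.5-fold in either direction was the line for calling a gene higher or lower. By that measure 5 members were higher in shNRP2 (17.9%) and 1 was lower (3.57%), beside 5.78% and 3.57% of all 13316 genes compared. The higher members were DPYSL4, EFNA2, L1CAM, EPHA3 and EPHA5, and the lower member was EPHB6. EPHB6 reached a mean of 1 CPM only through shControl, since its level in shNRP2 was 0.849 CPM. With both libraries set to equal totals 4 members were higher and 1 lower, beside 4.43% and 4.88% of all genes, and higher genes made up 47.6% of all calls against 61.8% as deposited. With 5 CPM added in place of 1 CPM, DPYSL4 and EPHA3 were the 2 members past the line and 0 were lower, beside 2.47% and 1.19% of all genes. The median log2 change was 0.16 over the 28 members and 0.03 over all genes compared. Plain ratios of CPM are given with exact 95% intervals from the reads, which cover counting error only, because PCR copies were not marked by molecular identifiers and no culture was repeated. The interval lay above 1 for 15 members and below 1 for 6, 53.6% and 21.4% of them, and the same held for 32.7% and 24.0% of all genes compared. Most of these differences were small, since 10 of the 15 and 5 of the 6 were within 1.5-fold. At 2-fold, 3 members were higher and 0 lower, beside 1.46% and 0.526% of all genes compared. An exact binomial test on the reads with Benjamini-Hochberg adjustment, which compares these libraries and not the conditions, called 14 members higher and 6 lower, beside 30.2% and 22.0% of all genes compared.

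**Figure D1:**
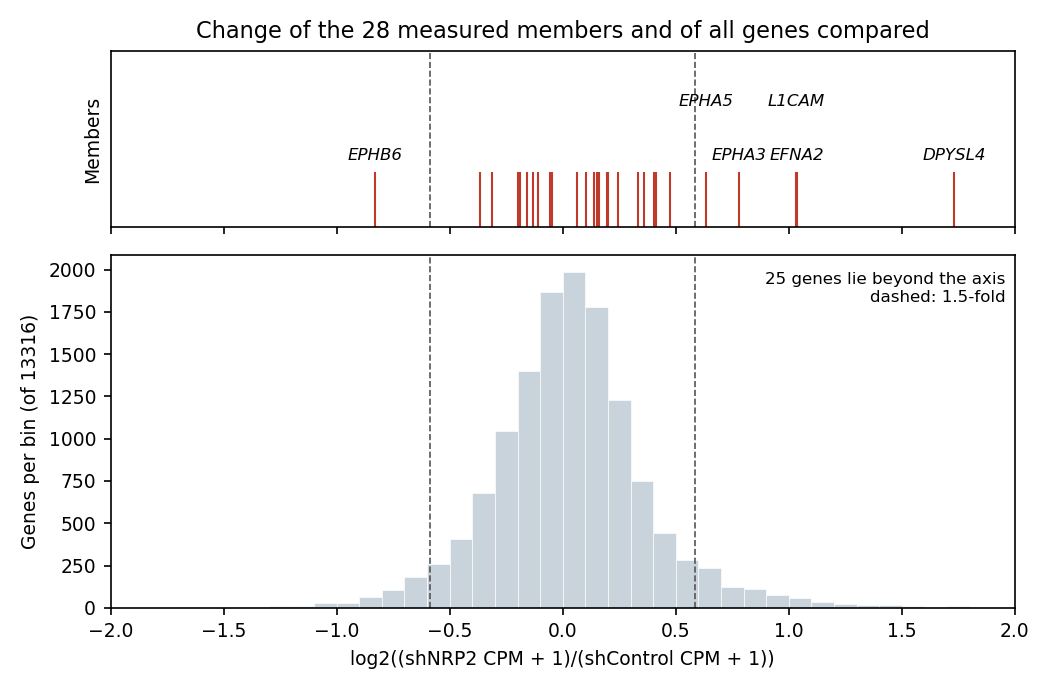
Upper panel: log2 change of each of the 28 measured axon guidance genes, 1 line per gene. Lower panel: number of genes per bin of 0.1 among all 13316 compared, from the same 2 libraries, with dashed lines at 1.5-fold; DPYSL4 at 1.73, L1CAM and EFNA2 at 1.03, EPHA3 at 0.78 and EPHA5 at 0.64 lie beyond the right line and EPHB6 at -0.83 beyond the left one.

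The start regions of the 6 genes past 1.5-fold are printed because these genes hold the main differences of the set. Each is 300 bases, from 250 before to 50 after the RefSeq start on build GRCh38.p14, written along the gene's strand in lower case. Capitals mark ACGTG or GCGTG on either strand (read as CACGT or CACGC on the other), the core letters of the element bound by hypoxia-inducible factors, a search made because low-oxygen genes differed between the libraries. The windows are chr10:132186698-132186997 on the plus strand for DPYSL4, chr19:1285623-1285922 on the plus strand for EFNA2, chrX:153875895-153876194 on the minus strand for L1CAM, chr3:89107371-89107670 on the plus strand for EPHA3, chr4:65670440-65670739 on the minus strand for EPHA5 and chr7:142862506-142862805 on the plus strand for EPHB6.
DPYSL4: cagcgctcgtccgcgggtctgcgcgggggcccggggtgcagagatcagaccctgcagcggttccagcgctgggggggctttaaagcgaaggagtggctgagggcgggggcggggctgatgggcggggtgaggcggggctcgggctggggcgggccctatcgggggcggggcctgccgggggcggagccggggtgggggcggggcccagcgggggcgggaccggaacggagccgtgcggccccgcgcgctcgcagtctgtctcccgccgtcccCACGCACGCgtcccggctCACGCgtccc
EFNA2: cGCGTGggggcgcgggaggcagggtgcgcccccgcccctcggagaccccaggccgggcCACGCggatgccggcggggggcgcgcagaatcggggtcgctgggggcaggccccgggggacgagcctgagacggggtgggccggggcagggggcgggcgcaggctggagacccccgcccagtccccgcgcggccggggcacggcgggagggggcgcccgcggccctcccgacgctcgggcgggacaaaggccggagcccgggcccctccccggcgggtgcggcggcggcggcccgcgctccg
L1CAM: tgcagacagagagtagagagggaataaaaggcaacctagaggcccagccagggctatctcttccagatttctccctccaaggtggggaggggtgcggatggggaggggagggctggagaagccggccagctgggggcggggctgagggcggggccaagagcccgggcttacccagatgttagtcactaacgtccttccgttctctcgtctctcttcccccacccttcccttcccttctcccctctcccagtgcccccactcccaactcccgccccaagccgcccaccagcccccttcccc
EPHA3: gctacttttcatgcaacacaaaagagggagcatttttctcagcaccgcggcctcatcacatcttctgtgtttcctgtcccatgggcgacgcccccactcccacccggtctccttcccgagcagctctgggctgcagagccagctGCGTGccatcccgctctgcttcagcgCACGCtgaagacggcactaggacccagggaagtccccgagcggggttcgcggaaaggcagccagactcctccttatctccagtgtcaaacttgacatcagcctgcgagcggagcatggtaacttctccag
EPHA5: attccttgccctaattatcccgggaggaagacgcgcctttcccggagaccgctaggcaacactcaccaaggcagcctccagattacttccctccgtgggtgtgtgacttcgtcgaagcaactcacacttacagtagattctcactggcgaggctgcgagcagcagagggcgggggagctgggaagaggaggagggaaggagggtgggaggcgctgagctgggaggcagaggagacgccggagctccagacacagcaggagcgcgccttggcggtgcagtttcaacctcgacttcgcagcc
EPHB6: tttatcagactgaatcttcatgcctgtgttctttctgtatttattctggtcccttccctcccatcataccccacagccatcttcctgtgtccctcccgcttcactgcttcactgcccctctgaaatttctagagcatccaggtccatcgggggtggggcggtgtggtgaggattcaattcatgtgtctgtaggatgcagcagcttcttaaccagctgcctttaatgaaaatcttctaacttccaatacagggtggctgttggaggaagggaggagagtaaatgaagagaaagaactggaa

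DPYSL4 held GCGTG 3 times, 2 of them overlapping by 1 base and all within the last bases of its window, and EFNA2 and EPHA3 held it 2 times each. The printed windows of L1CAM, EPHA5 and EPHB6 held neither motif, while a second EPHA5 start in the table held ACGTG once. Of 35116 promoter windows in the table, 48.4% held at least 1 of the motifs (21.4% ACGTG, 36.5% GCGTG). Of the 36 members with a window 24 did, or 66.7% (11.1% ACGTG, 63.9% GCGTG). The measures are not alike, since each member was counted by its first window and the table by every window of a gene. GC content differed too, with 79.3% G or C in the DPYSL4 window, 85.3% in that of EFNA2 and 48.0% in that of EPHB6. The windows of L1CAM, EPHA5 and EPHA3 had 64.7%, 61.7% and 59.7%, against a median of 58.7% over all windows. EPHB2, which did not pass 1.5-fold, had 83.0%. Of the other members, EFNA3, EFNA5, EPHA4 and EPHA8 held GCGTG 3 times each and ROBO3 held it 4 times. A match to these letters describes a window and does not show a site.

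Among the ligands, the 5 A-type ephrins spread in both directions. EFNA2, which encodes the lipid-anchored ligand ephrin-A2, had 1.17 CPM in shControl and 3.44 CPM in shNRP2, from 24 and 73 reads. The knockdown library was the high one, by 2.95-fold (1.84 to 4.89), with counting intervals of the levels at 0.749 to 1.74 CPM and 2.70 to 4.33 CPM. EFNA3 (ephrin-A3) was at 115 and 147 CPM, a ratio of 1.28 (1.22 to 1.35). EFNA1 (ephrin-A1) was at 74.2 and 79.7 CPM, a ratio of 1.07 whose interval began at 1.00 and held 1 when both libraries were set to equal totals. EFNA5 (ephrin-A5), the ephrin with the most reads, went the other way, from 314 to 275 CPM, a ratio of 0.876 (0.845 to 0.908). EFNA4 (ephrin-A4) was at 44.9 and 40.1 CPM, a ratio of 0.894 (0.814 to 0.983). The sum over all 5 genes was nearly level, at 549 and 546 CPM, while single members differed in both directions. GENCODE release 29 holds a readthrough gene that shares exon sequence with both EFNA3 and EFNA4, and its reads cannot be told apart from theirs.

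The B-type ephrins all lay slightly higher in shNRP2. EFNB1 (ephrin-B1), a transmembrane ligand, was at 24.4 and 32.6 CPM, a ratio of 1.34 (1.19 to 1.504). EFNB2 (ephrin-B2), best known from arteries and lymphatic vessels, was at 22.3 and 25.8 CPM, a ratio of 1.16 (1.02 to 1.31). EFNB3 (ephrin-B3) was at 24.2 and 27.9 CPM, a ratio of 1.15 (1.02 to 1.30). None of the 3 passed 1.5-fold, and with both libraries set to equal totals the intervals of EFNB2 and EFNB3 held 1. Summed over the 3 genes, 71.0 and 86.4 CPM gave a ratio of 1.22 (1.14 to 1.30), or 1.15 with equal totals.

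Of 9 EphA receptor genes, 5 were measured above the filter. EPHA3, a receptor for A-type ephrins that is studied as a tumour antigen, was at 20.7 CPM in shControl and 36.4 CPM in shNRP2, from 426 and 771 reads. The knockdown library was 1.75-fold higher (1.56 to 1.98). EPHA5, a receptor known mainly from neurons, was at 4.14 and 6.98 CPM, 85 and 148 reads, and 1.69-fold higher (1.28 to 2.23). Its log2 change of 0.64 was just past the 1.5-fold line and fell just short of it, at 0.56, with equal totals. An antisense gene, EPHA5-AS1, overlaps it and was at 0.243 and 0.189 CPM. The remaining measured receptors differed less and not in one direction. EPHA2, an ephrin-A1 receptor often abundant in carcinomas, was lower in shNRP2, at 25.1 and 20.0 CPM, a ratio of 0.798 (0.700 to 0.909). EPHA1, the first Eph receptor to be described, was at 25.9 and 30.8 CPM, a ratio of 1.19 (1.06 to 1.34). EPHA10, whose kinase domain is held to be inactive, was at 19.4 and 20.3 CPM, and its direction flipped with equal totals (ratio 1.05 as deposited, 0.989 with equal totals). EPHA4 and EPHA7 had 2 reads each in shControl and 0 in shNRP2, EPHA6 had 5 and 7, and EPHA8 had 13 and 12.

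**Figure D2:**
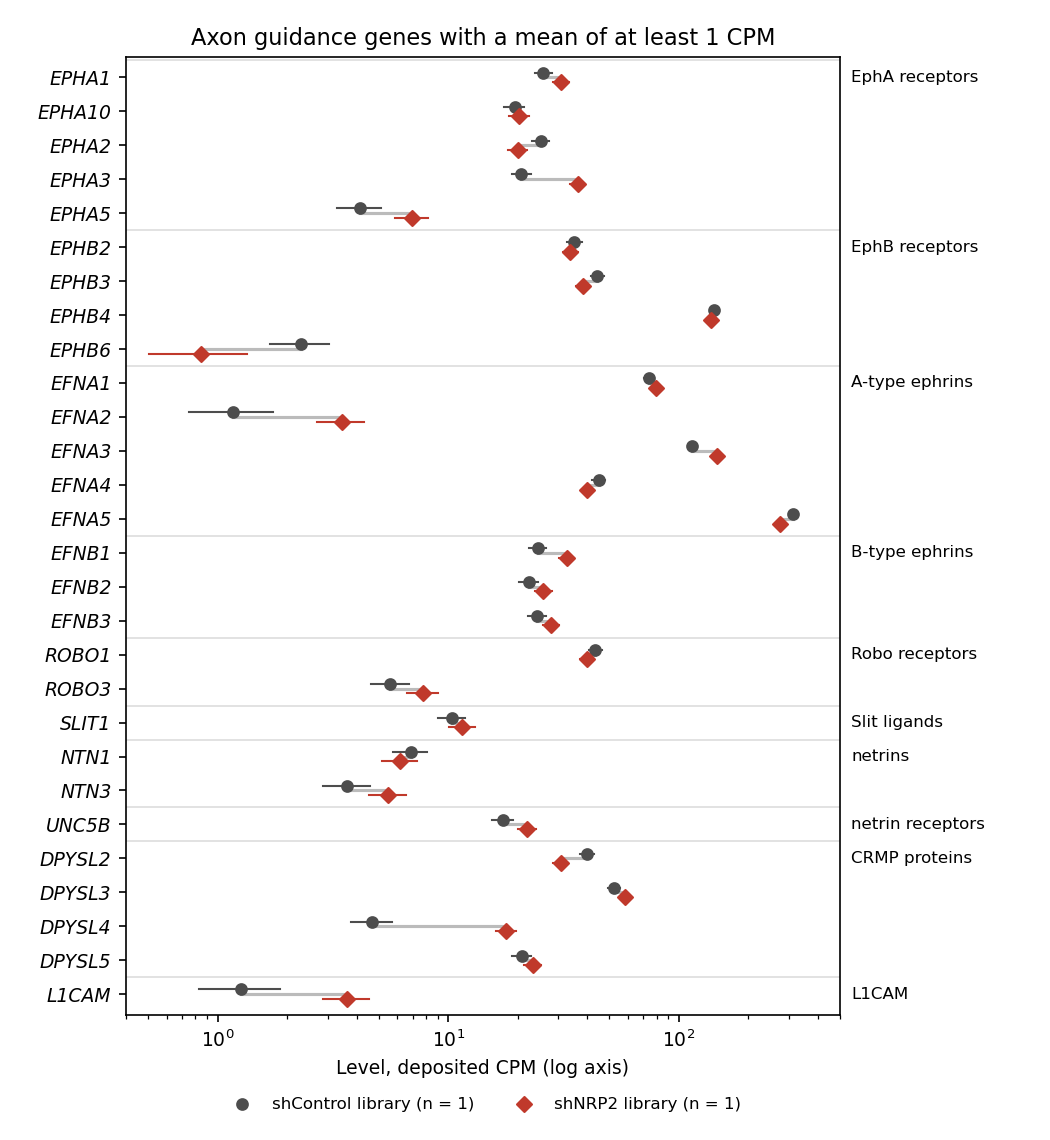
Level of each measured member in deposited CPM on a log axis, with circles for the shControl library and diamonds for the shNRP2 library (n = 1 each) and bars for exact 95% counting intervals. The pairs lie farthest apart for DPYSL4 (4.67 and 17.8 CPM), EFNA2, L1CAM and EPHB6, and the last 3 are the members with the lowest levels.

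All 4 measured EphB receptors had lower values in shNRP2, and the ratio interval excluded 1 for 2 of them. EPHB6, a receptor without kinase activity, had 2.29 CPM in shControl and 0.849 CPM in shNRP2, from 47 and 18 reads. It was 2.70-fold lower in the knockdown library (1.54 to 4.93), the only measured member below the 1.5-fold line. It passed the filter only through its level in shControl, and with a filter at a mean of 5 CPM 0 members were lower. EPHB4, the ephrin-B2 receptor and the Eph receptor with the most reads, was at 143 and 138 CPM, a ratio of 0.968 (0.919 to 1.02). Its interval lay below 1 with equal totals, at 0.869 to 0.963. EPHB3 was at 44.3 and 38.5 CPM, a ratio of 0.869 (0.789 to 0.956), and EPHB2 was at 35.2 and 33.8 CPM, a ratio of 0.961 (0.865 to 1.07). Both are known for sorting cells along the intestinal crypt. EPHB1 had 12 and 9 reads. Summed over the family, EphB receptors were at 225 and 212 CPM, a ratio of 0.941 (0.903 to 0.980), and EphA receptors were at 96.3 and 115 CPM, a ratio of 1.198 (1.13 to 1.27). The 2 intervals, which cover counting error only, did not overlap, and with equal totals the ratios were 0.889 and 1.13. Most of the EphA difference lay in EPHA3, at 20.7 CPM in shControl and 36.4 CPM in shNRP2. The sum without EPHA3 was not computed, so these ratios do not describe the EphA receptors as a whole.

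Levels of different genes were compared per kilobase, using the median length of each gene's coding transcripts in GENCODE release 29, which is not the annotation behind the counts. Per kilobase, the order of the A-type ephrins was led by EFNA3 and EFNA5, at 64.3 and 63.7 CPM per kb in shControl, a gap too small to order them given the lengths assumed. In shNRP2 they were at 82.6 and 55.8 CPM per kb, and EFNA3 made up 36.5% of the family's per-length level against 30.0% in shControl. EPHA3 went from 23.1% of the EphA level in shControl to 33.5% in shNRP2, while EPHA2 went from 21.7% to 14.4%. With the longest transcript of each gene in place of the median, the share of EPHA3 was 16.3% and 24.8%, so its rank depends on the length used and its larger share in shNRP2 does not. EPHB4 held 64.3% and 66.1% of the EphB level.

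**Figure D3:**
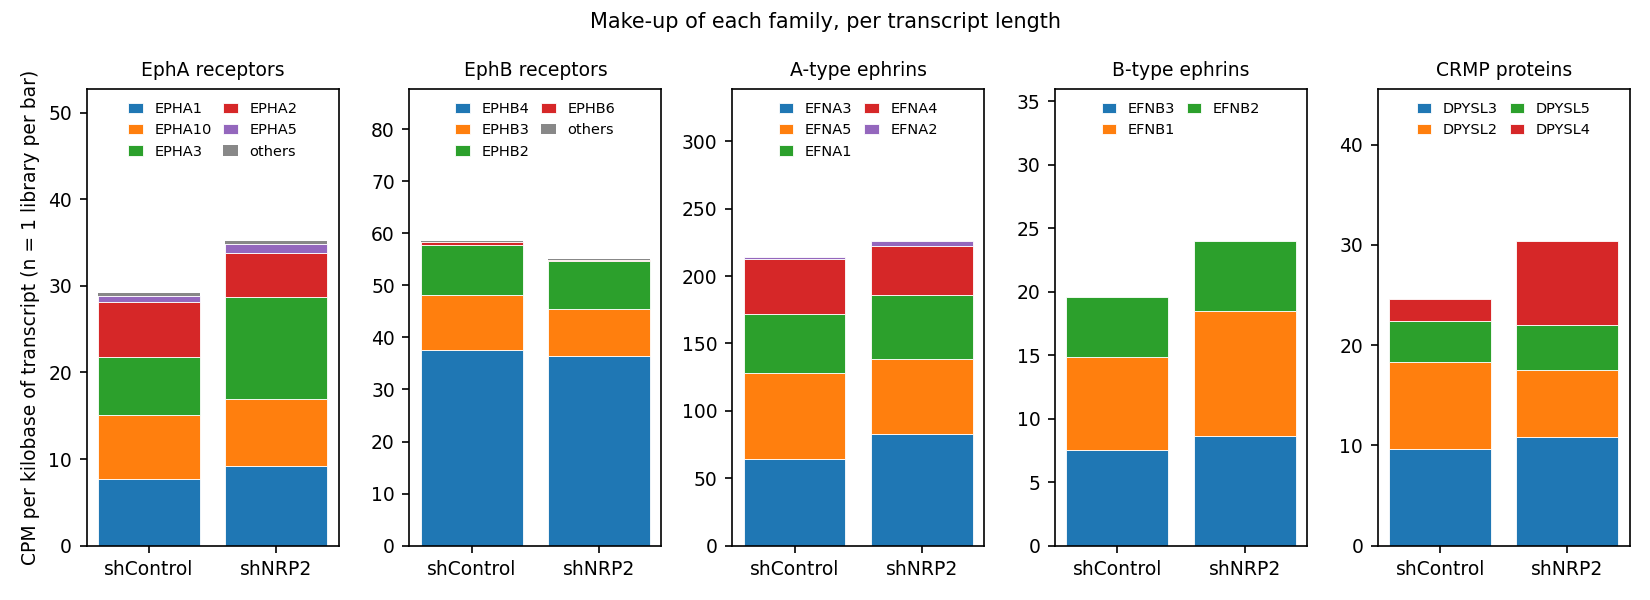
Stacked bars of CPM per kilobase of median transcript length for 5 families in the shControl and shNRP2 libraries (1 library per bar, no error bar), with genes under 1% of a family in both libraries pooled as others. EPHA3 widens within the EphA receptors and DPYSL4 within the CRMP genes, while the EphB receptors keep EPHB4 as the main gene in both bars.

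Of the Slit and Robo genes, few carried reads. ROBO1, the main Slit receptor here, was at 43.4 and 40.1 CPM, a ratio of 0.924 (0.840 to 1.02). Its interval lay below 1 with equal totals, at 0.794 to 0.961. ROBO3, a divergent Robo known from axons that cross the midline, was at 5.60 and 7.78 CPM, a ratio of 1.39 (1.09 to 1.78). SLIT1, the ligand gene with a measurable level, was at 10.4 and 11.5 CPM, a ratio of 1.11 (0.920 to 1.34). ARHGAP19-SLIT1, which shares exon sequence with SLIT1 on the same strand, was at 0 and 0.283 CPM. The ligands most often studied in epithelia were nearly absent. SLIT2 had 8 reads in shControl and 0 in shNRP2, at least 1.76-fold lower by the exact interval of the ratio. SLIT3 had 3 reads and 1 read. ROBO2 had 25 and 13 reads, 1.22 and 0.613 CPM, and the interval of its ratio, 0.237 to 1.02, held 1. ROBO4, the endothelial Robo, had 0 reads in both, and the exact intervals of a count of 0 reach 0.180 CPM in shControl and 0.174 CPM in shNRP2.

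Netrins were low in both libraries. NTN3 (netrin-3) was at 3.65 and 5.47 CPM, 75 and 116 reads, a ratio of 1.498 (1.11 to 2.03) that stayed under the 1.5-fold line on the scale with 1 CPM added. NTN1 (netrin-1), the classical chemoattractant, was at 6.86 and 6.18 CPM, and its interval of 0.704 to 1.15 held 1. NTN4 (netrin-4), a basement membrane netrin, went the other way from 25 reads to 4, at 1.22 and 0.189 CPM, 6.45-fold lower (2.23 to 25.5), but its mean of 0.703 CPM kept it out of the genes compared. NTN5 had 5 and 6 reads. Of the receptors among the members, UNC5B, known from vessel guidance, was the one with a measurable level, at 17.2 and 22.0 CPM, a ratio of 1.28 (1.11 to 1.47). DCC and UNC5C had 0 reads in both libraries, UNC5A had 3 reads in each, and UNC5D had 3 and 0. DCC is therefore listed at 0 in a line that carries netrin-1 RNA. NEO1, which encodes the DCC relative neogenin and is not a member by symbol, was at 109 CPM in shControl and 101 CPM in shNRP2.

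In all, 15 members lay under a mean of 1 CPM, 9 of them with fewer reads in shNRP2, 2 with more, 1 with equal reads and 3 with 0 in both. The ratio interval excluded 1 for 2 of the 15, NTN4 and SLIT2, both lower. None of these 15 had over 25 reads in either library. The same counts were not made for the other genes under a mean of 1 CPM, so they are not read as a direction of the low members.

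On the scale with 1 CPM added, the largest difference among the 28 members compared was in a CRMP gene. DPYSL4, which encodes CRMP3 and is known as a target of p53, had 4.67 CPM in shControl and 17.8 CPM in shNRP2, from 96 and 378 reads. The knockdown library was 3.81-fold higher (3.04 to 4.82), and the log2 change of 1.73 ranked 30 from the top among 13316 genes. The other CRMP genes did not follow it. DPYSL2, which encodes the tubulin-binding CRMP2, was lower, at 39.8 and 30.7 CPM, a ratio of 0.771 (0.694 to 0.856). DPYSL3 (CRMP4) was at 52.1 and 58.3 CPM, a ratio of 1.12 (1.03 to 1.22), and DPYSL5 (CRMP5) at 20.8 and 23.2 CPM, a ratio of 1.12 (0.979 to 1.27). With equal totals the interval of DPYSL3, 0.974 to 1.15, held 1. Per kilobase, DPYSL4 made up 8.90% of the 4 genes in shControl and 27.5% in shNRP2, while DPYSL2 made up 35.2% and 22.0%. DPYSL2 shares exon sequence on the opposite strand with PNMA2, which was at 3.70 and 2.88 CPM.

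L1CAM, an adhesion molecule of axons that is also found at the edge of invading carcinomas, had 1.27 CPM in shControl and 3.63 CPM in shNRP2, from 26 and 77 reads. It was 2.87-fold higher in shNRP2 (1.82 to 4.66). The changes of L1CAM and EFNA2 were nearly the same size and ranked 176 and 174 among 13316 genes, both on few reads.

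**Figure D4:**
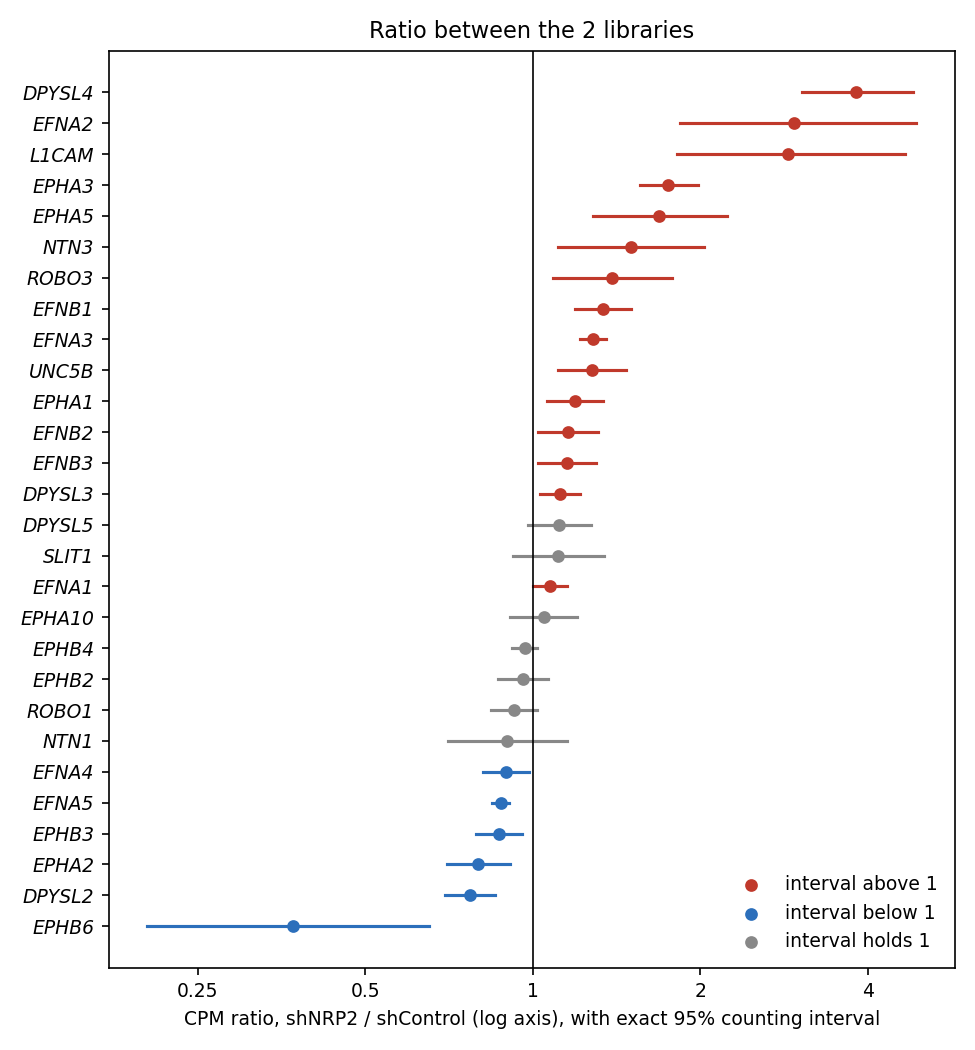
Ratio of CPM, shNRP2 over shControl, for each measured member on a log axis with the exact 95% counting interval, ordered by the ratio (1 library per group). Intervals lie above 1 for 15 genes and below 1 for 6, and hold 1 for 7; the widest are those of EFNA2, L1CAM and EPHB6, the members with the fewest reads.

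Partners of these genes were taken from lists, and their counts are read beside the 5.78% higher and 3.57% lower of all genes compared. Of 35 effectors, adaptors and proteases of Eph receptors and ephrins, 32 were measured, 2 of them higher by the 1.5-fold line (6.25%) and 1 lower (3.13%), close to those shares, and the median log2 change was -0.04. By the counting interval 7 were higher (21.9%) and 15 lower (46.9%), beside 32.7% and 24.0% of all genes compared. Of those 15, 14 were within 1.5-fold. FYN, a Src family kinase that binds activated EphA receptors, was at 4.77 and 8.16 CPM, 1.71-fold higher (1.33 to 2.21). NGEF, the guanine nucleotide exchange factor ephexin-1 that acts downstream of EphA receptors, was at 27.6 and 41.9 CPM, 1.52-fold higher (1.37 to 1.69), and its log2 change of 0.59, just past the line, fell under it with equal totals and with a centred median ratio. PTPRO, a phosphatase that acts on Eph receptors, was at 1.61 and 0.472 CPM, 33 and 10 reads, 3.41-fold lower (1.64 to 7.75). With a mean of 1.04 CPM, PTPRO passed the filter only through shControl. ADAM10, the protease that sheds ephrins, was at 179 CPM in both.

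Of 37 partners of Slits, netrins and CRMP proteins, 26 were measured, with 1 higher (3.85%), 2 lower (7.69%) and a median of 0.03. RGMA, a repulsive ligand of the DCC relative neogenin, was at 15.2 and 25.0 CPM, 1.64-fold higher (1.42 to 1.89). CRMP1, the CRMP gene that does not carry a DPYSL symbol, was at 3.31 and 1.32 CPM, 68 and 28 reads, 2.51-fold lower (1.59 to 4.04), opposite to DPYSL4. SRGAP3, a Slit-Robo GTPase-activating protein, was at 10.1 and 6.04 CPM, 1.67-fold lower (1.33 to 2.098). Of 19 relatives and partners of L1CAM, 14 were measured, with 1 higher (7.14%), 0 lower and a median of 0.14. The higher gene was ANK1, which encodes an ankyrin of the membrane skeleton, at 1.75 and 5.09 CPM, 36 and 108 reads, 2.91-fold higher (1.98 to 4.36).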

How the data were processed

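RNA of 2 libraries, shControl and shNRP2, was compared. Each deposited table gives a signal per gene symbol, which its label describes as CPM after TMM normalization by the authors. The submitters' processing notes name bcl2fastq 2.17, RSEM 1.2.15, Bowtie2 2.1.0, edgeR and build hg19; what each tool did, the annotation and strand use were not given in the sources used here. All values (100%) were whole multiples of 1 read within 0.01 read, so reads were recovered. Column sums were 1024943 and 1084413, more than CPM would give without TMM, and values were used as deposited, although the design had assumed plain CPM.

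Of 26475 rows, 28 named calendar dates (0.181% and 0.184% of reads) and were left out. Ratios, exact conditional (Clopper-Pearson) and Poisson 95% intervals, and medians were computed with scipy 1.17.1 and pandas 2.3.3. The interval and binomial calculations were tested on simulated counts with Poisson counting error alone. That checks the arithmetic and not the calls, because the simulation held no variation between cultures or from PCR copies. With 1 library per group no test between conditions was made. The exact binomial test on the reads, with Benjamini-Hochberg adjustment, compares these libraries only and called 6954 of 13316 genes. Every member was accounted for by symbol; partner genes past 1.5-fold were named. Members and lists were chosen with earlier results of these data known. Promoters come from RefSeq (GRCh38.p14), matched by symbol for 36 members; DPYSL2, EFNB3, EPHA10, NTN1, NTN3, UNC5B and UNC5D had no entry. Transcript lengths come from GENCODE release 29. Alternatives covered pseudocount, filter, scaling, fold and call rule.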

Additional observations from a re-analysis of the deposited data

How the results depend on the processing

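No paired analysis was possible because each group holds 1 library. Leaving out a replicate was not possible for the same reason. Setting both libraries to equal read totals shifted every log2 ratio by -0.08, and centring the median ratio shifted it by -0.03. With equal totals 4 members were higher and 1 lower, beside 4.43% and 4.88% of all genes. With a centred median 5 were higher and 1 lower, beside 5.34% and 4.01%. EPHA10 was the 1 member whose direction flipped. Over all genes the share of calls that were higher went from 61.8% to 47.6% with equal totals. With equal totals the counting interval lay above 1 for 11 members and below 1 for 8 (23.2% and 34.6% of all genes compared), and with a centred median for 14 and 8 (29.2% and 27.6%). Among the members, a pseudocount of 5 CPM left 2 higher and 0 lower (2.47% and 1.19% of all genes), a filter at a mean of 5 CPM left 3 higher and 0 lower of 24 (4.15% and 2.77%), and a 2-fold call left 3 higher and 0 lower (1.46% and 0.526%). Without a filter 5 of 43 were higher and 2 lower, beside 3.43% and 2.14% of all genes. The median log2 change was then 0 over the members and 0 over all genes. The binomial test called 14 higher and 6 lower, and the interval rule 15 and 6. Of 164 single-member values recomputed, 157 lay inside their counting interval and 7 outside. Those under the changed filters are among the 157 by construction, because a filter cannot alter a gene's own value. A reversal was scored only for members past 1.5-fold in the main setting, which leaves out EPHA10. The 0 reversals found were fixed in advance and do not show stability. A pseudocount or filter keeps the sign, and the shifts of -0.08 and -0.03 are smaller than 1.5-fold.

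For Eph and ephrin partners (2 higher, 1 lower), the count higher was 0 with a pseudocount of 5 CPM and with a 2-fold call, and 1 under both rescalings, which took NGEF under the line. The count lower was 2 with a pseudocount of 0.25 CPM and without a filter, and 0 with a pseudocount of 5 CPM, a filter at 5 CPM and a 2-fold call. The interval rule gave 7 higher and 15 lower (21.9% and 46.9%), and the binomial test 7 and 11. Over all genes compared the shares were 32.7% and 24.0% by the interval rule and 30.2% and 22.0% by the binomial test. For Slit, netrin and CRMP partners (1 higher, 2 lower), the count higher was 2 with a pseudocount of 0.25 CPM and 0 with 5 CPM or a 2-fold call. The count lower was 0 with 5 CPM or a 2-fold call and 1 with a filter at 5 CPM. The interval rule gave 11 and 4 (42.3% and 15.4%), the binomial test 10 and 4, to be read beside the same shares of all genes. For L1CAM partners (1 higher, 0 lower), the count higher was 2 with a pseudocount of 0.25 CPM and 0 with 5 CPM or a filter at 5 CPM. The interval rule and the binomial test both gave 7 and 1 (50% and 7.14%), again beside those shares of all genes. Apart from fewer genes or a stricter line, the cause was not tested. Depth limits EFNA2, L1CAM, EPHB6 and the 15 members under 1 CPM, whose intervals are wide.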

Other observations

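Relatives of L1CAM and the ankyrins that bind them held further differences that did not pass 1.5-fold on the scale with 1 CPM added or lay under the filter, and they are named here after their values were seen. NFASC, the L1 family gene neurofascin, was at 46.4 CPM in shControl and 67.6 CPM in shNRP2, a ratio of 1.46 (1.34 to 1.58). ANK2, which encodes ankyrin-B, was at 1.61 and 2.69 CPM, a ratio of 1.67 (1.07 to 2.65). NRCAM, another L1 family gene, had 5 and 17 reads, a ratio of 3.29 (1.17 to 11.4). CHL1 had 0 and 2 reads. Against these, ANK3, the ankyrin gene with the most reads, had 165 CPM in shControl and 186 CPM in shNRP2 (log2 change 0.17), and the contactin gene CNTN2 was at 2.09 and 1.56 CPM.

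CHN1, which encodes the Rac-inactivating protein chimaerin that acts downstream of EphA4, was also chosen after its value was seen. It had 24 reads in shControl and 7 in shNRP2, 3.54-fold lower (1.48 to 9.73), and lay under the filter.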
